A study of Mus musculus with 9 samples.

Results

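The genes described here are 10 markers of T cells and cytotoxic lymphocytes, read on arrays of sorted mouse brain and spleen cells. They were chosen by name: Cd3e, Cd3d, Cd3g and Lck for T cells, and Nkg7, Gzma, Gzmb, Prf1, Klrd1 and Ncr1 for natural killer (NK) and other cytotoxic cells. Each gene was represented by the brightest of its probe sets that is annotated to a single symbol. Such a probe set was found for 9 of the 10 genes among 19937 genes in all, and each of the 9 has 1. Lck, the kinase that starts T cell receptor signalling, had no probe set matched to its symbol, and its level was not analysed here.

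Cd3e, Cd3d and Cd3g encode the epsilon, delta and gamma chains of the CD3 complex, which carries the T cell receptor to the surface and passes its signal inward. Cytotoxic cells kill through granules: perforin, the product of Prf1, opens the target membrane, and the granzymes encoded by Gzma and Gzmb are the proteases that enter. Nkg7 encodes a granule membrane protein, Klrd1 encodes CD94, the partner chain of the NKG2 receptors, and Ncr1 encodes the activating receptor NKp46. The healthy brain holds few lymphocytes, whereas the spleen is rich in them, and NK cells can carry CD11b and Ly6C. Antibodies to both are among those listed for the sort.

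RNA was measured on 9 Affymetrix arrays, 3 for each of 3 groups of cells from C57BL/6 mice, for which the labels name no mutation and no treatment: Ly6C-high microglia, which the labels call MgSCs, Ly6C-low bulk microglia, and spleen monocytes. The antibodies listed for the sort bind CD45, CD11b, EMR1, Ly6C and MHC class II, and none of them is a T or NK cell antibody. The labels give neither the age of the mice, nor the gate used for spleen cells, nor whether replicates came from separate or pooled animals, so each p-value reflects only how these arrays vary, and that variation may be technical. Values are log2 intensities as deposited, as mean ± SD with n = 3 arrays, and differences are in log2 units with their standard error (SE).

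The Ly6C-high arrays were the least alike, with a median SD per gene of 0.27, against 0.14 in Ly6C-low microglia and 0.11 in monocytes. Array medians ran from 5.83 to 5.96. The table has no detection call, so a low value here is not shown to be an absent transcript, and levels of different genes are not compared. Markers of the sorted types were read as list means. The 7 measured microglia markers averaged 10.71 to 11.28 in Ly6C-low arrays, 7.57 to 8.57 in Ly6C-high arrays, and in monocytes they averaged 6.20 to 6.37. The 8 brain endothelium markers averaged 10.45 to 11.01 in Ly6C-high arrays, 6.05 to 7.66 in Ly6C-low arrays and 5.99 to 6.19 in monocytes, so the Ly6C-high arrays carried endothelial transcripts beside microglial ones. The 7 classical monocyte markers averaged 9.98 to 10.31 in the monocyte arrays and 6.09 to 6.41 in the Ly6C-low arrays, and 7.39, 9.59 and 6.38 in Ly6C-high replicates 1, 2 and 3.

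The sequence upstream of the start site is shown for 6 members, which were low together in both brain groups or, for Ncr1, high in a single array. Cd3e was also low in both brain groups, and its sequence was read but is not printed. The windows are the 250 bases before the start in RefSeq, GRCm38.p6, written along the gene's own strand, and 8 of the 9 measured members have an entry. Cd3g and Cd3d are neighbours that are read in opposite directions, with start sites 1355 bases apart on chromosome 9. Capitals mark the core motif of RUNX transcription factors, TGTGGT, or its reverse complement, ACCACA. Gzmb lies on the minus strand (chr14:56262335-56262584), Gzma on the minus strand (chr13:113100982-113101231), Nkg7 on the plus strand (chr7:43436888-43437137), Ncr1 on the plus strand (chr7:4337465-4337714), Cd3g on the minus strand (chr9:44980432-44980681) and Cd3d on the plus strand (chr9:44981536-44981785).
Gzmb: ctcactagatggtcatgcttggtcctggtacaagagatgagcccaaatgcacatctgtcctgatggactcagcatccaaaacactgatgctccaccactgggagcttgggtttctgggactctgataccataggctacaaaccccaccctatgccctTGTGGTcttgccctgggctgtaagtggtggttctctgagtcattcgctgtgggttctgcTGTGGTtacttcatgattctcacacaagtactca
Gzma: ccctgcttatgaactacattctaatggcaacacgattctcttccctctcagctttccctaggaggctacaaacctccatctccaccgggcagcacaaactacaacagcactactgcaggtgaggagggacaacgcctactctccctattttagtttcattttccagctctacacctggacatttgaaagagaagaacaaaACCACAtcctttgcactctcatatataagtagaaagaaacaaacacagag
Nkg7: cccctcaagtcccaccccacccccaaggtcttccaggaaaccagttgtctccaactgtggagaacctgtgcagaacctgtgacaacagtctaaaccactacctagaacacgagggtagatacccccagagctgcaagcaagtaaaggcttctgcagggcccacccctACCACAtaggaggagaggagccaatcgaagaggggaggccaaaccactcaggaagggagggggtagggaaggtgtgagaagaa
Ncr1: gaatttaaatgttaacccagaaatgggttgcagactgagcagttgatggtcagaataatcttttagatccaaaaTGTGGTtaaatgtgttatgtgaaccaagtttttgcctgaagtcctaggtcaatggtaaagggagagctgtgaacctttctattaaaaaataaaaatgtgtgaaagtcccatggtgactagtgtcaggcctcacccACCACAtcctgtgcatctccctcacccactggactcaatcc
Cd3g: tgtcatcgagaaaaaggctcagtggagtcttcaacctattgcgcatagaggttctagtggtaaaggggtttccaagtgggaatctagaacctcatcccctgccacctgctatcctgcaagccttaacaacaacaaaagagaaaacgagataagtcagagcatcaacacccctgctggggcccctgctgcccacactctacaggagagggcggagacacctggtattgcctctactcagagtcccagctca
Cd3d: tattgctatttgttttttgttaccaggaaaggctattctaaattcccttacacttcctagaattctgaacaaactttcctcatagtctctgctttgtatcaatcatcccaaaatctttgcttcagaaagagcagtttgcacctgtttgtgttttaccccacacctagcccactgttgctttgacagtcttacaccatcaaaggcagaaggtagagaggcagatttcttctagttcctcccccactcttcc
In Gzmb the motif begins 93 and 34 bases before the start, in Gzma 50 bases, in Nkg7 83 bases, and in Ncr1 176 and 41 bases, counted from the first of its 2 listed starts. Prf1 holds 1 match, 130 bases before its start. The motif was in the window of all 5 cytotoxic members with an entry and in none of the 3 CD3 genes. It was also in the window of the T cell gene Lck, so it does not follow the split between the T cell and cytotoxic genes of the set. It occurred in 14.0% of the 32536 distinct windows of this length over all genes. In all, 4 motifs were counted on both strands, and they were chosen after these windows had been read. The ETS motif AGGAAGT was in Cd3e, Cd3d, Prf1 and Lck and in 7.70% of all windows. The AP-1 motif TGANTCA was in Gzmb alone of the set and in 6.73% of all windows, and the CRE motif TGACGTCA was in none of the set and in 1.56% of all windows. A match is not a bound site, and no binding was measured.

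The CD3 chains were low in both brain groups and high in every monocyte array. Cd3e stood at 6.16, 6.76 and 6.40 in Ly6C-high replicates 1 to 3, at 6.64, 6.21 and 6.05 in Ly6C-low replicates, and at 9.54, 9.13 and 9.26 in monocytes. The brain groups overlapped each other, and every brain array lay below every monocyte array. The difference of Cd3e from monocytes was -2.87 ± 0.21 log2 units in Ly6C-high microglia (7.30-fold lower, limma adjusted p = 5.34e-05) and -3.01 ± 0.21 in Ly6C-low microglia (8.04-fold, adjusted p = 4.15e-05). Cd3d was at 4.76, 4.09 and 4.32 in Ly6C-high, at 4.51, 4.34 and 4.77 in Ly6C-low and at 7.94, 7.75 and 7.72 in monocyte arrays. Its monocyte arrays varied least of the members, with an SD of 0.12, and the brain groups overlapped each other. Cd3d differed from monocytes by -3.41 ± 0.19 (10.6-fold, adjusted p = 1.61e-05) in Ly6C-high and by -3.26 ± 0.19 (9.59-fold, adjusted p = 1.53e-05) in Ly6C-low microglia. Cd3g was at 5.18, 4.85 and 4.48 in Ly6C-high, at 4.86, 4.51 and 4.57 in Ly6C-low and at 8.68, 8.29 and 9.21 in monocyte arrays. It too separated the monocytes from both brain groups, with differences of -3.89 ± 0.25 (14.8-fold, adjusted p = 3.16e-05) and -4.08 ± 0.25 (16.9-fold, adjusted p = 2.35e-05).

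The granzymes and Nkg7 were likewise low in both brain groups and high in every monocyte array. Gzma, which encodes a tryptase of the granules, stood at 5.47, 5.40 and 5.24 in Ly6C-high, at 4.90, 4.63 and 4.91 in Ly6C-low and at 8.21, 8.44 and 9.75 in monocyte arrays. The third monocyte array was the highest by 1.31. Gzma differed from monocytes by -3.43 ± 0.35 in Ly6C-high (10.8-fold lower, adjusted p = 3.05e-04) and by -3.99 ± 0.35 in Ly6C-low microglia (15.9-fold, adjusted p = 1.41e-04). Gzmb, which encodes a protease that activates caspases, was at 5.40, 4.91 and 5.12 in Ly6C-high, at 5.40, 4.89 and 5.04 in Ly6C-low and at 8.61, 8.83 and 9.14 in monocyte arrays. The brain groups covered nearly the same values, and the difference from monocytes was -3.72 ± 0.20 (13.1-fold, adjusted p = 1.48e-05) in Ly6C-high and -3.75 ± 0.20 (13.5-fold, adjusted p = 1.10e-05) in Ly6C-low microglia. Nkg7 was at 5.67, 6.85 and 4.96 in Ly6C-high, at 5.63, 5.83 and 6.54 in Ly6C-low and at 9.61, 8.90 and 10.72 in monocyte arrays. Ly6C-high replicate 2, the array with the highest classical monocyte markers of that group, also had the highest Nkg7 of the brain arrays, and the part of those cells in this value was not tested. Nkg7 differed from monocytes by -3.92 ± 0.56 (15.1-fold, adjusted p = 0.00189) in Ly6C-high and by -3.74 ± 0.56 (13.4-fold, adjusted p = 0.00261) in Ly6C-low microglia.

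Of the NK receptor genes, Klrd1 was lower in both brain groups than in monocytes and Ncr1 did not pass in either. Klrd1 was at 5.56, 4.96 and 5.51 in Ly6C-high, at 6.34, 6.70 and 7.19 in Ly6C-low and at 8.40, 8.78 and 9.67 in monocyte arrays, so that none of the 3 groups overlapped. It differed from monocytes by -3.61 ± 0.35 in Ly6C-high (12.2-fold lower, adjusted p = 2.30e-04) and by -2.20 ± 0.35 in Ly6C-low microglia (4.61-fold, adjusted p = 0.00333). Ncr1 was at 5.38, 4.67 and 4.83 in Ly6C-high, at 4.58, 4.70 and 4.38 in Ly6C-low and at 5.09, 5.20 and 7.0 in monocyte arrays. A single array, the third monocyte replicate, stood apart, and Ly6C-high replicate 1 lay above the lowest monocyte array. The difference of Ncr1 did not pass in Ly6C-high (-0.80 ± 0.46, adjusted p = 0.221) or Ly6C-low microglia (-1.21 ± 0.46, adjusted p = 0.136). Without the third monocyte array these differences were -0.18 and -0.59.

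Prf1, the perforin gene, did not pass against monocytes in either brain group. It was at 6.66, 6.80 and 6.70 in Ly6C-high, at 7.43, 7.18 and 7.63 in Ly6C-low and at 7.46, 6.86 and 8.15 in monocyte arrays. The Ly6C-low arrays lay within the span of the monocyte arrays, and the Ly6C-high arrays lay just below it. The difference from monocytes was -0.77 ± 0.29 in Ly6C-high (adjusted p = 0.0868) and -0.08 ± 0.29 in Ly6C-low microglia (adjusted p = 0.924, 95% interval -0.73 to 0.57). The interval leaves out a difference from Ly6C-low cells as large as that of the granzymes. Without the second monocyte array Prf1 was called lower in Ly6C-high microglia (-1.09, adjusted p = 0.0204). Without the third, the differences from monocytes were -0.44 and 0.25 in Ly6C-high and Ly6C-low cells.

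**Figure D1:**
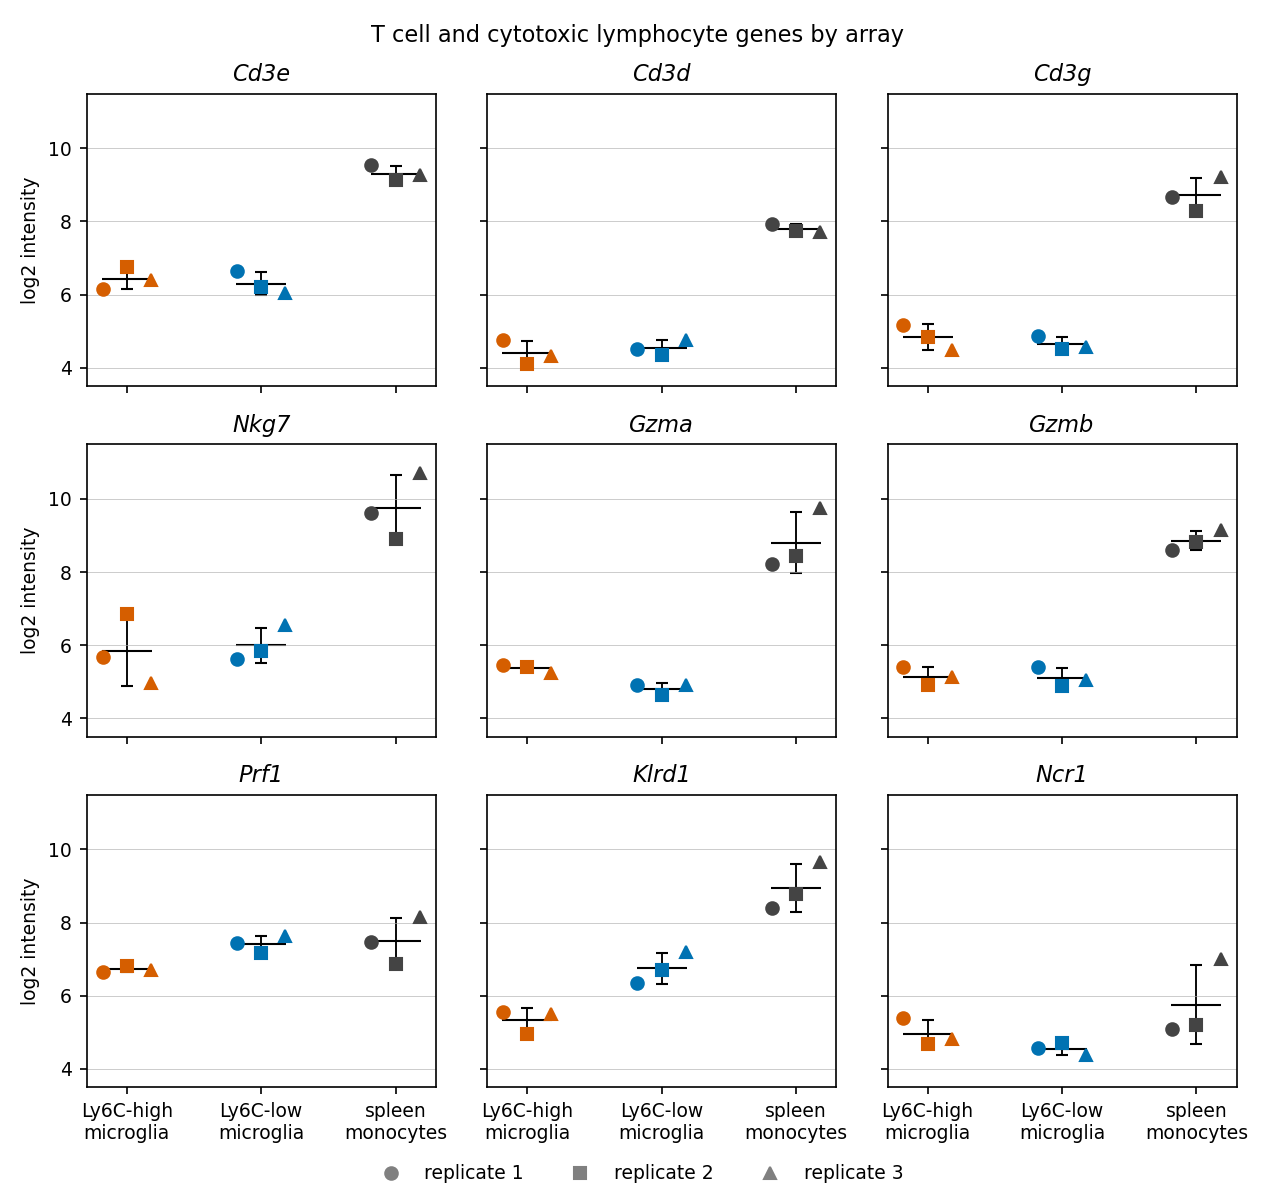
Log2 intensity of each of the 9 measured genes in every array, by group; marker shapes are replicates, and bars show the mean ± SD of 3 arrays. Monocyte arrays lie above all brain arrays for the CD3 chains, Nkg7, both granzymes and Klrd1, while Prf1 overlaps between Ly6C-low microglia and monocytes and Ncr1 is raised in 1 monocyte array.

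In all, 7 of the 9 measured members were lower in Ly6C-high microglia than in spleen monocytes and none was higher, where 14.6% of all genes were called lower and 21.5% were called in either direction. The same 7 members were lower in Ly6C-low microglia, where 7.71% of all genes were called lower and 14.5% in either direction. The median difference of the 9 members was -3.43 in Ly6C-high and -3.26 in Ly6C-low microglia, against 0.09 and 0.05 over all genes. The arrays did not overlap for 8 of 9 members in each of these comparisons, with the monocytes higher in all 8. Over all genes, non-overlap was found for 45.9% and 42.3% in either direction, and for 21.9% and 19.1% with the brain group lower. Genes called higher than in monocytes made up 6.88% and 6.80% of all genes. Both comparisons use the same monocyte arrays, so they are not independent of each other. In bulk RNA, fewer cells of a type and less RNA per cell cannot be told apart, and neither can lymphocytes in the sort and these transcripts in monocytes themselves. The all-gene split depends on the scaling for Ly6C-high microglia against monocytes: 32.0% of calls were higher on the deposited values, against 45.1% after quantile normalization and 43.5% after cyclic loess. The count of members lower was 7 under each of these scalings.

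**Figure D2:**
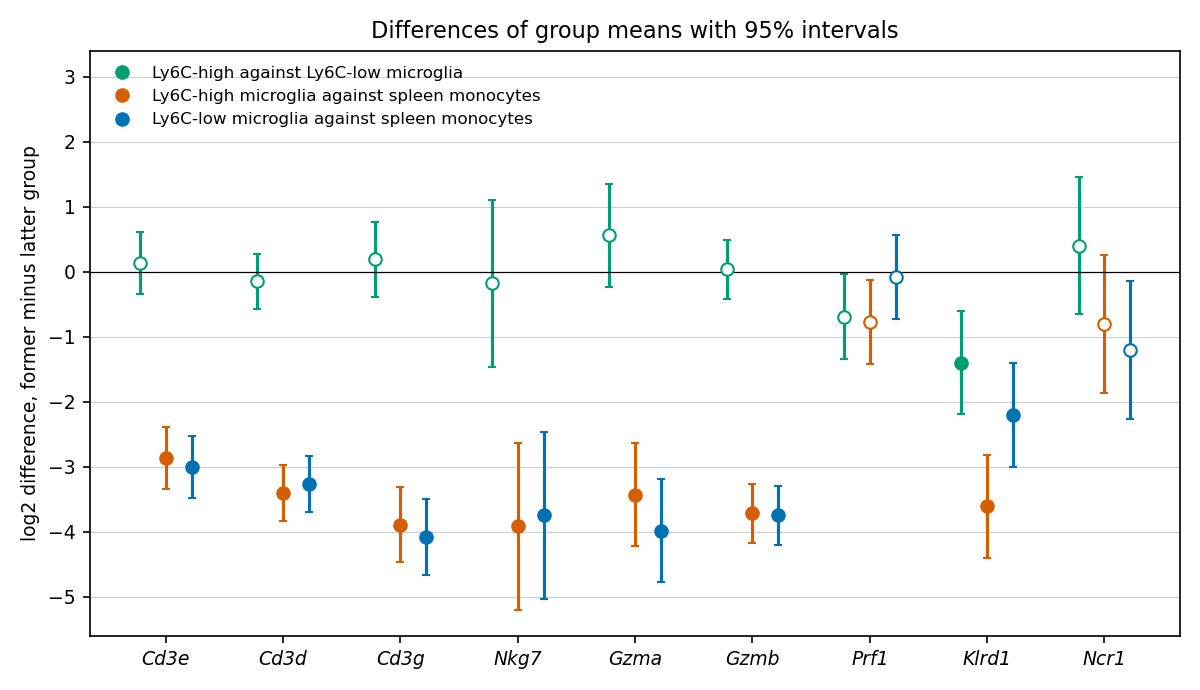
Difference of group means in log2 units for each gene in the 3 comparisons, with 95% intervals from the limma fit; filled points passed an adjusted p of 0.05 and open points did not. The 7 genes lower than in monocytes lie at -2.20 or below in both brain groups, and only Klrd1 passed between the microglia groups.

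Between the microglia groups, 1 of the 9 members differed: Klrd1 was lower in Ly6C-high than in Ly6C-low microglia, with a difference of -1.40 ± 0.35 log2 units (2.64-fold, limma adjusted p = 0.0269) and every Ly6C-high array below every Ly6C-low array. Over all genes 15.4% were called in either direction, so a share of 1 in 9 is near the background. The Klrd1 call ended without Ly6C-high replicate 2 (-1.21, adjusted p = 0.0614). It also ended without replicate 2 of the Ly6C-low group (-1.43, adjusted p = 0.0790), without its replicate 3 (-1.18, adjusted p = 0.104), under cyclic loess (-1.24, 0.0561) and with array weights (-1.40, 0.192). Ly6C-low replicate 3 had the highest Klrd1 (7.19), Prf1 (7.63) and Nkg7 (6.54) of its group, and also the highest mean of the neutrophil markers, 9.40 against 6.91 and 7.18. The part of those cells in the difference of Klrd1 was not tested. Klrc1, which encodes NKG2A, a partner of CD94, did not pass (0.31 ± 0.40, adjusted p = 0.622). Nor did Klrk1, which encodes NKG2D (-0.17 ± 0.19, adjusted p = 0.588). Klrc1 averaged 3.79 in Ly6C-high and 3.48 in Ly6C-low microglia, and Klrk1 averaged 4.23 and 4.39, against 6.80 and 7.10 in monocytes. At such low levels a difference between the microglia groups may not show.

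Groups that do not overlap were also seen for Gzma and Prf1, in opposite directions, though neither passed on all 9 arrays. Gzma was 0.56 ± 0.35 higher in Ly6C-high microglia (adjusted p = 0.331) and Prf1 differed by -0.69 ± 0.29 (adjusted p = 0.152). Non-overlap of these groups was found for 30.1% of all genes, and for 17.2% with the Ly6C-high arrays lower. Both genes had their widest spread in monocytes, which share the estimate of the spread. Without monocyte replicate 3 the adjusted p was 0.0309 for Gzma and 0.0489 for Prf1, and with only the 6 microglia arrays it was 0.0546 and 0.0370. For the CD3 chains the 95% intervals of the difference between microglia groups were -0.34 to 0.61 in Cd3e, -0.57 to 0.28 in Cd3d and -0.39 to 0.77 in Cd3g. For Gzmb the interval was -0.42 to 0.49, for Nkg7 -1.46 to 1.11 and for Ncr1 -0.65 to 1.46. All-gene calls between these groups were 29.1% higher on the deposited values and 40.8% higher after quantile normalization or cyclic loess.

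Monocyte replicate 3 stood above the others in the cytotoxic genes. It was the highest of the 3 arrays for all 6 cytotoxic members. Its lead over the next array was 1.80 in Ncr1, 1.31 in Gzma, 1.11 in Nkg7, 0.89 in Klrd1, 0.69 in Prf1 and 0.31 in Gzmb. Replicate 3 was the highest for 32.8% of all genes, and it led by at least 0.5 log2 units for 2.21% of them. Such a lead was found for 5 of the 6 cytotoxic members. Of the CD3 chains, Cd3g led in replicate 3 by 0.53, while Cd3e and Cd3d were highest in replicate 1. The mean of the cytotoxic members was 7.89, 7.84 and 9.07 in monocyte replicates 1, 2 and 3, and that of the CD3 chains was 8.72, 8.39 and 8.73. This is a description of single arrays and carries no test. Without replicate 3 the same number of members, 7, was lower in each brain group.

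**Figure D3:**
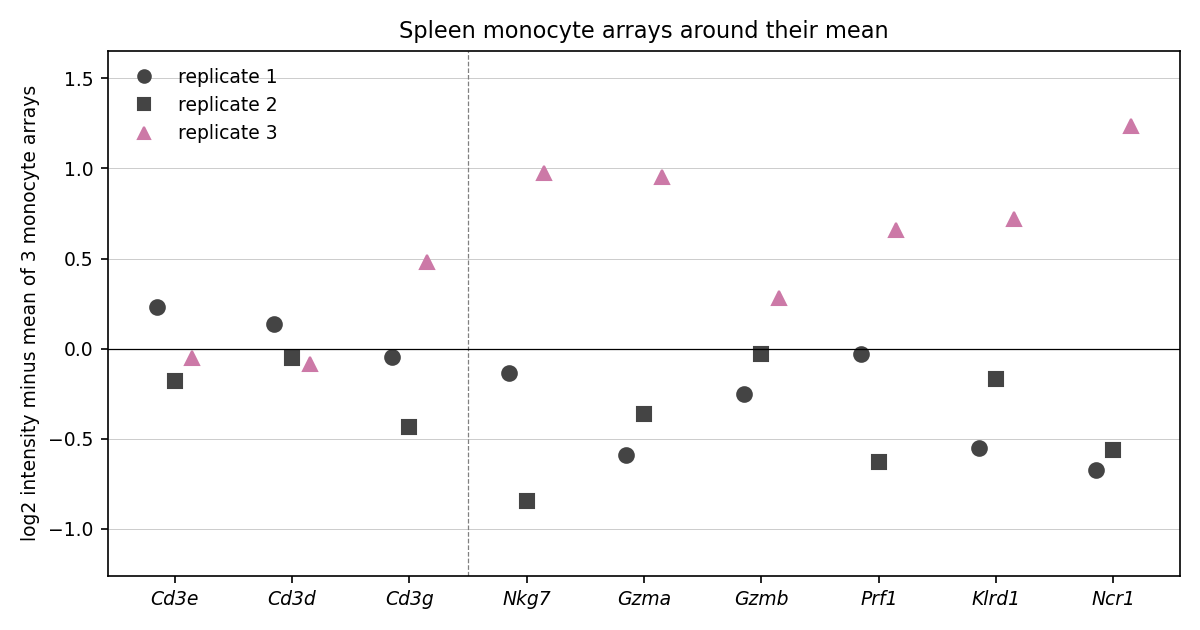
Each monocyte array's log2 intensity minus the mean of the 3 monocyte arrays, for the CD3 chains (left of the dashed line) and the cytotoxic genes (right). Replicate 3 is the highest point for all 6 cytotoxic genes, and for Cd3g among the CD3 chains.

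Other genes of the same cells were read from lists. Of 25 measured NK cell genes beyond the members, 9 led in monocyte replicate 3 by at least 0.5 log2 units. Over all genes such a lead was found for 2.21%. Eomes, a transcription factor of NK cells and memory T cells, was at 7.43, 6.74 and 8.80 in the monocyte arrays, and Klrc1 at 6.20, 6.37 and 7.84. Klrg1, an inhibitory receptor, was at 4.73, 4.88 and 6.23. Of 23 granule and effector genes 5 led by that much, among them the chemokine gene Xcl1 (7.88, 7.31 and 9.87) and Ctsw, which encodes a cathepsin of cytotoxic cells (6.62, 6.32 and 8.57). Of 29 T cell genes 9 led, among them Gata3 (6.16, 6.42 and 7.59) and the adaptor gene Lat (7.31, 7.13 and 8.32). The genes named for this lead were chosen after their values were seen. In these lists the lead was not a feature of each gene: Cd27 (8.45, 8.28 and 8.0), Icos (9.10, 9.64 and 8.87) and Gzmc (5.24, 5.83 and 4.24) were lowest in replicate 3. So were the NK cell genes Klrb1c (3.89, 3.92 and 3.77) and Cd160 (5.42, 5.56 and 5.37).

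Against monocytes, 24 of 29 T cell genes were lower in Ly6C-high microglia and 1 was higher, and 23 were lower and none higher in Ly6C-low microglia. Their median differences were -1.80 and -1.60. Over all genes 14.6% and 7.71% were called lower, and the medians were 0.09 and 0.05. The adhesion receptor gene Cd2 differed by -3.73 ± 0.25 and -4.01 ± 0.25 (adjusted p = 3.62e-05 and 2.48e-05), and the costimulatory receptor gene Cd28 by -3.26 ± 0.26 and -3.71 ± 0.26 (adjusted p = 9.78e-05 and 4.87e-05). The phosphatase gene Ptpn22 differed by -3.55 ± 0.40 and -4.01 ± 0.40. Thy1 (-3.07 ± 0.29) completed the leading 4 in Ly6C-high microglia and the kinase gene Fyn (-3.17 ± 0.43) in Ly6C-low microglia. The zeta chain of the same receptor complex, Cd247, did not pass in either brain group (-0.44 ± 0.18, adjusted p = 0.116, and -0.38 ± 0.18, adjusted p = 0.228), nor did the kinase gene Zap70 (-0.18 ± 0.24, adjusted p = 0.573, and -0.73 ± 0.24, adjusted p = 0.0863). The gene that was higher in Ly6C-high microglia was Lef1 (1.56), a nuclear partner of beta-catenin that is also known in brain endothelium, and it was 3.52 ± 0.27 higher than in Ly6C-low microglia (adjusted p = 1.05e-04).

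Of 25 NK cell genes, 16 were lower in Ly6C-high and 14 in Ly6C-low microglia than in monocytes, and none was higher. The median differences were -1.29 and -1.11, against 0.09 and 0.05 over all genes, of which 14.6% and 7.71% were called lower. Il2rb, the receptor chain that NK cells share for IL-2 and IL-15, differed by -4.19 ± 0.23 and -4.42 ± 0.23 (adjusted p = 1.61e-05 and 1.00e-05). Klrc1 differed by -3.01 ± 0.40 and -3.33 ± 0.40 (adjusted p = 0.00118 and 7.55e-04), and Klrk1 by -2.87 ± 0.19 and -2.71 ± 0.19 (adjusted p = 3.23e-05 and 4.31e-05). The adaptor gene Sh2d1b1 was among the leading 4 in Ly6C-high microglia (-2.79 ± 0.29) and Eomes in Ly6C-low microglia (-3.21 ± 0.44). Some NK cell genes did not pass in either brain group, among them Klrb1c (limma adjusted p = 0.555 and 0.391). Cd160 (0.385 and 0.934) and Tbx21 (0.144 and 0.109) did not pass either. Tyrobp encodes DAP12, an adaptor shared with myeloid cells. It was lower in Ly6C-high microglia than in monocytes (-1.14 ± 0.34, adjusted p = 0.0438) and did not pass in Ly6C-low microglia (-0.17 ± 0.34, adjusted p = 0.840) or between the microglia groups (-0.97 ± 0.34, adjusted p = 0.0950).

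Of 23 granule, release and effector genes, 9 were lower and 1 higher in Ly6C-high microglia, and 7 were lower and 1 higher in Ly6C-low microglia. The median differences were -0.51 and -0.45, against 0.09 and 0.05 over all genes. Of all genes 14.6% and 7.71% were called lower, and 6.88% and 6.80% higher. Ccl5, a chemokine gene of activated lymphocytes, differed by -3.56 ± 0.59 and -4.18 ± 0.59 (adjusted p = 0.00375 and 0.00182). Xcl1 differed by -2.06 ± 0.54 and -2.30 ± 0.54, and Ctsw by -2.02 ± 0.51 and -2.15 ± 0.51. Serpinb6b, a protease inhibitor gene, was lower in Ly6C-low microglia than in monocytes (-2.09 ± 0.24, adjusted p = 6.73e-04) and did not pass in Ly6C-high microglia (-0.20 ± 0.24, adjusted p = 0.524). The higher genes were Tnfsf10, which encodes the death ligand TRAIL, in Ly6C-high microglia (1.65 ± 0.49, adjusted p = 0.0434) and Gzmm, a granzyme gene, in Ly6C-low microglia (0.47 ± 0.13, adjusted p = 0.0400). Gzmk was lower in both brain groups (-0.51 ± 0.15 and -0.59 ± 0.15), and Gzmc, at -1.08 ± 0.34 and -1.11 ± 0.34, did not pass (adjusted p = 0.0544 and 0.0654). Granzyme genes lie in clusters of close relatives, and whether their probes tell them apart was not tested.

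**Figure D4:**
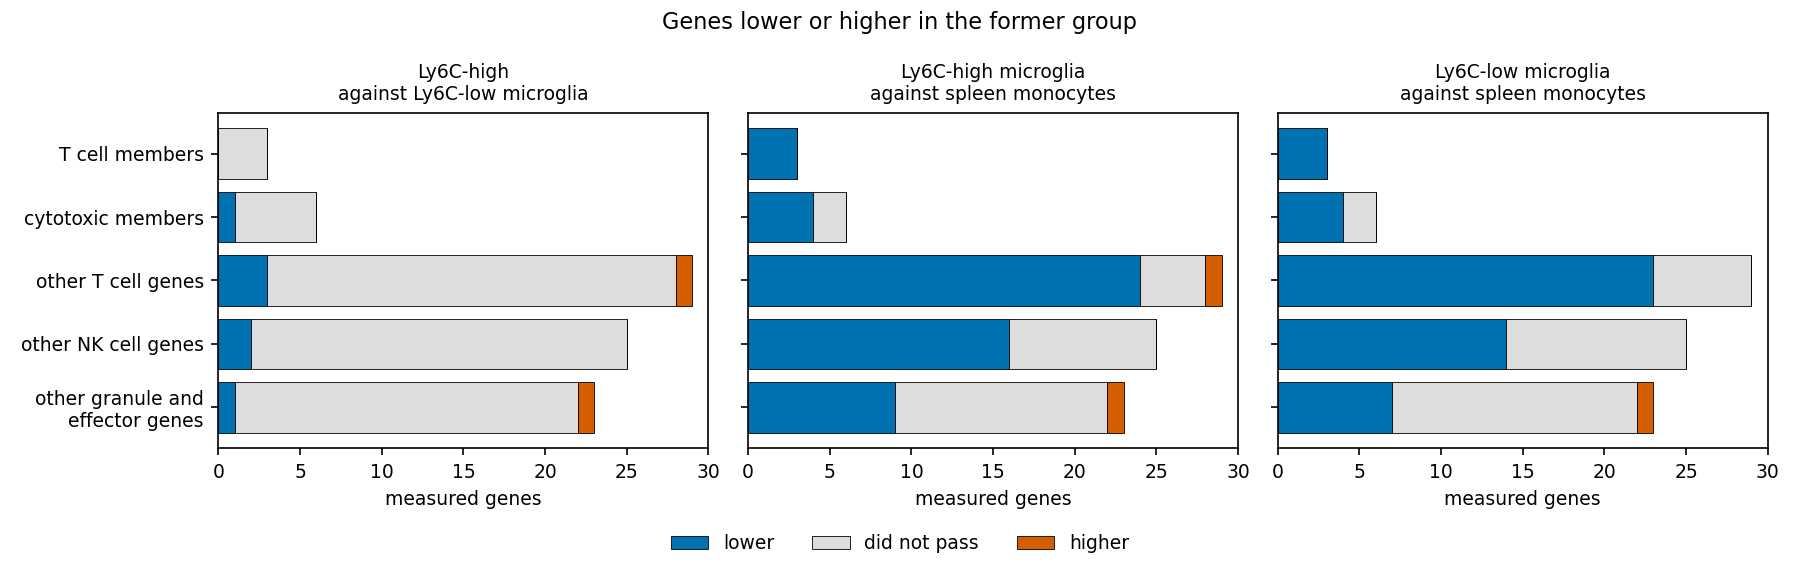
Number of measured genes of each list that were lower, higher or did not pass an adjusted p of 0.05 in the former group of each comparison. Lower calls fill most of the T cell list against monocytes, and grey bars fill most of each list between the microglia groups.

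Between the microglia groups 4 of 29 T cell genes, 2 of 25 NK cell genes and 2 of 23 granule and effector genes passed, where 15.4% of all genes did. Of 29 T cell genes 1 was higher and 3 were lower in Ly6C-high microglia, Lef1 and, on the lower side, Il7r (-3.16 ± 0.22, adjusted p = 6.45e-05), Lcp2 (-2.25 ± 0.47, 0.0132) and Cd27 (-1.11 ± 0.23, 0.0126). Il7r encodes the IL-7 receptor chain and Lcp2 an adaptor that myeloid cells also use. Il7r was at 8.90, 9.62 and 9.40 in Ly6C-low microglia and at 8.92, 9.36 and 8.97 in monocytes, so it did not follow the CD3 chains. Of 25 NK cell genes 2 were lower, the Fc receptor gene Fcgr3 (-2.54 ± 0.52, adjusted p = 0.0119) and the transcription regulator Id2 (-1.65 ± 0.39, 0.0222). Myeloid cells also use Fcgr3. Of 23 granule and effector genes Serpinb6b was higher (1.89 ± 0.24, adjusted p = 0.00124) and Ctsc, a lysosomal protease gene, was lower (-1.50 ± 0.42, 0.0455). The medians of the 3 lists were 0.08, 0.11 and 0.08, against 0.05 over all genes.

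Markers of other blood cells moved in the same comparisons, where 14.6% of all genes were called lower in Ly6C-high and 7.71% in Ly6C-low microglia. All 7 measured B cell markers were lower in Ly6C-low microglia than in monocytes and 6 were lower in Ly6C-high microglia, with list means of 8.53 to 9.21 in monocytes, 5.43 to 5.85 in Ly6C-low and 5.98 to 6.21 in Ly6C-high arrays. Of 9 neutrophil markers 8 were lower in Ly6C-high and 4 in Ly6C-low microglia, with list means of 10.03 to 10.46 in monocytes, 6.91, 7.18 and 9.40 in Ly6C-low replicates 1, 2 and 3, and 5.76 to 7.20 in Ly6C-high arrays. Of 8 dendritic cell markers 5 were lower in each brain group, with list means of 6.85 to 7.13 in monocytes, 5.79 to 5.83 in Ly6C-low and 5.61 to 5.92 in Ly6C-high arrays. Of 8 mast cell and basophil markers 5 were lower and 1 was higher in Ly6C-high microglia, and 4 were lower in Ly6C-low microglia, with list means of 6.69 to 7.15 in monocytes, 5.25 to 5.47 in Ly6C-low and 5.60 to 5.93 in Ly6C-high arrays. The lowest value of any probe set in any array was 2.54. Without a detection call, marker values alone do not show a cell type to be present or absent. The part of these cell types in the values of the members was not tested. In monocyte replicate 3 none of the B cell, neutrophil, classical monocyte or mast cell markers led by 0.5 log2 units, and 1 dendritic cell marker, Clec9a, did.

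**Figure D5:**
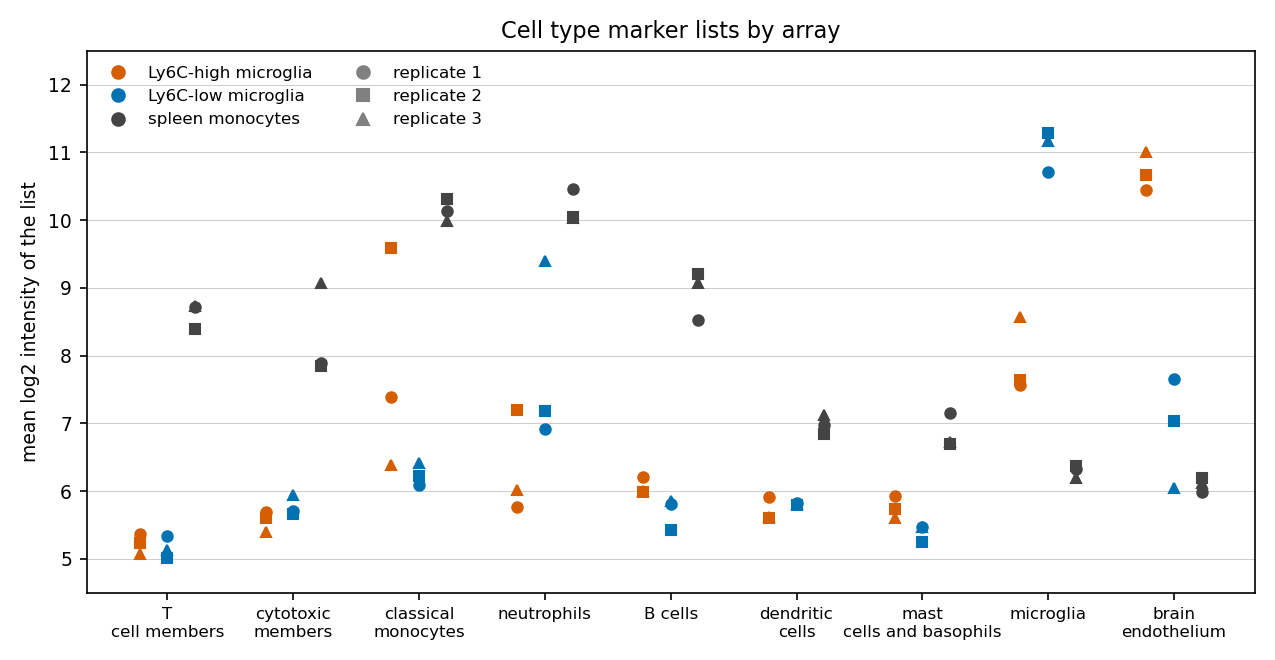
Mean log2 intensity of each cell type's marker list in every array; colours are groups and shapes are replicates. Monocyte replicate 3 stands above the other monocyte arrays in the cytotoxic list, at 9.07, while B cell, neutrophil and classical monocyte lists are high in all 3 monocyte arrays.

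Genes whose values over the 9 arrays ran closest to those of the members were found from centred profiles. The members themselves and genes with predicted or clone-based symbols were left out of this ranking. The distance was the root-mean-square difference in log2 units over 9 arrays, and profiles of this kind share arrays and 1 large step between spleen and brain. For the mean of the CD3 chains, whose range was 3.71, the nearest 6 genes were Mctp2 (0.16), Ikzf3 (0.20), Cd7 (0.24), Ccr9 (0.26), Kmo (0.26) and Gpr171 (0.28). Ikzf3 encodes the lymphoid transcription factor Aiolos, Cd7 a surface protein of T and NK cells and Ccr9 a chemokine receptor of gut-homing lymphocytes. Ccr9 is also in the dendritic cell marker list used here. Neighbours left without a description were not assigned to any cell type. Cd7 was at 6.46, 6.17 and 6.18 in Ly6C-high, 6.36, 5.89 and 6.18 in Ly6C-low and 9.25, 8.98 and 9.17 in monocyte arrays. For the mean of the cytotoxic members, whose range was 3.68, they were Itgad (0.19), Il18rap (0.20), Rasgrp1 (0.21), Il18r1 (0.22), Lpl (0.23) and Ccr3 (0.24). Il18rap and Il18r1 encode the chains of the IL-18 receptor, and Itgad encodes an integrin alpha chain. Il18r1 was at 6.46, 6.78 and 8.14 in the monocyte arrays and between 4.28 and 4.70 in the brain arrays, and Itgad was at 7.61, 7.86 and 8.77 in monocytes.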

How the data were processed

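The deposited table holds log2 intensities for 9 arrays. Its makers used RMA and oligo, per the submitters' processing notes, which list no versions. What settings they chose, and which build the array design follows, is not given in the sources used here. In the platform annotation 1 symbol is paired with each of 21640 of 34760 probe sets. The brightest by mean over 9 arrays stood for each of 19937 genes.

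The deposited log2 values were used unchanged. limma 3.58.1 in R 4.3.3 (lmFit, eBayes) fitted 3 group means to all arrays. Tests were two-sided, and a gene was called at an adjusted p under 0.05 (Benjamini-Hochberg, over every gene). The code was tested on simulated data. Alternatives covered scaling, a filter on dim genes that 8 of the 9 measured members passed, probe set choice, array weights, the prior, replicate numbers and leaving out arrays.

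All members are named. Of the 3 lists of other T cell, NK cell and granule genes, up to 4 called genes with the largest difference are named per comparison. Cell type marker lists are given by counts and means. Any other gene or value named, such as Cd247, Zap70, Tyrobp, Gzmk, Gzmm, Gzmc, Clec9a, Lef1 against monocytes, Klrc1 and Klrk1 between the microglia groups, and the genes named for monocyte replicate 3, falls outside that rule and was chosen after its values were seen. Members, lists and tests were chosen with earlier results of these data known. The number of arrays limits the precision.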

Additional observations from a re-analysis of the deposited data

How the results depend on the processing

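The 7 members called lower than in monocytes in both brain groups gave a count of 7 under each alternative run, except 8 for Ly6C-high microglia without monocyte replicate 2. Between the microglia groups the count of 1 became 0 under cyclic loess, with array weights, and without both Ly6C-high replicate 2 and Ly6C-low replicate 3, an alternative chosen after seeing the data. In each of these limma gave 1 member at an unadjusted p under 0.05. The count was 2 with only the 6 arrays compared, and 0 to 3 when single arrays were left out, where a group of 2 was assumed to vary like the others. Where it was 0 then, 1 or 2 members had an unadjusted p under 0.05.

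Some differences that had not passed changed sign, and the cause was not tested. Between the microglia groups Cd3e ran from -0.02 to 0.31 and Cd3d from -0.33 to 0.00 when single arrays were left out, and they were -0.15 and 0.12 without both arrays named above. Nkg7 ran from -0.68 to 0.26 (0.09 without Ly6C-low replicate 3) and was 0.02 under cyclic loess. Gzmb ran from -0.09 to 0.18 (-0.08 and -0.00 without replicates 2 and 3 of the Ly6C-low group) and was -0.01 under quantile normalization. Prf1 in Ly6C-low microglia against monocytes ran from -0.39 to 0.25 (0.04 without Ly6C-low replicate 2) and was 0.00 under quantile normalization.

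With the title number as a replicate block, 1, 7 and 7 members were called, and 2973, 4295 and 2795 of all genes against 3080, 4290 and 2894. Deviations of arrays with the same title number correlated at -0.026 to 0.213. Replicate 3 of each group and monocyte replicate 2 did not correlate best with an array of their own number. With 3 arrays a group, these correlations cannot show whether such arrays share more than a number. The descriptions end in another number, which Ly6C-high replicate 1 shares with Ly6C-low replicate 1 (0.213) and Ly6C-high replicate 2 with Ly6C-low replicate 3 (0.119). The labels do not say what it marks. With it as a random block 1, 7 and 7 members were called, and 3932 of all genes between the microglia groups. Over all genes, calls between the microglia groups fell to 2011 and 1956 when Ly6C-low replicate 2 or 3 was left out, and to 2038 with 6 arrays. Ly6C-high microglia against monocytes had 2505 and 2511 without monocyte replicate 1 or 2. Ly6C-low microglia had 1864 without monocyte replicate 1, 5175 with array weights and 4614 with 6 arrays.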
